A study of Nematostella vectensis with 4 samples.

Results

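*Nvelav* (gene ID NV2g000252000.1) is the RNA-binding gene on the study's list of neuronal markers of the sea anemone *Nematostella vectensis*. It is 1 of the 24526 genes counted in the series, and it was chosen by its identifier. The cells came from whole embryos at the gastrula stage, 24 h post fertilization. The study lists *NvashA* and *NvLWamide* as its other neuronal markers, so the question was how closely *Nvelav* follows them and how much of it lies in cells that carry markers of other tissues. A single pool of unmanipulated gastrulae was dissociated. From it came 4 technical replicates, each a library of single cells prepared by the 3′ droplet method of 10x Genomics. No second genotype, treatment or stage was sampled, and every p-value below measures the spread between libraries of 1 pool and not between embryos.

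ELAV proteins carry RNA recognition motifs and bind uridine-rich stretches of target transcripts. In *Drosophila* and in vertebrates the neuronal members act on splicing, on the stability of messenger RNA and on its translation in cells that have begun to differentiate as neurons. *ELAV* genes are widely used as markers of neurons for this reason, and the neurons of cnidarians form nets within the ectoderm and the endoderm.

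The deposited values are counts of unique molecular identifiers (UMIs), each standing for 1 captured transcript, for every gene in every cell barcode. The 4 libraries held 22980631 to 56880930 UMIs, and 2268 to 7234 barcodes per library had at least 500 genes and are called cells here. Together these were 16089 cells with 4076 *Nvelav* UMIs. Libraries differed in depth, with median UMIs per cell of 6555.5, 4986, 5285 and 2267 in replicates 1 to 4. Barcodes shared by any pair of libraries numbered 28, and 0 of them held *Nvelav* in both. No doublets were removed.

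*Nvelav* was a sparse transcript at nearly the same level in each library. Its summed level in CPM, the usual scale of a gene's UMIs over all UMIs, was 26.4, 24.6, 31.7 and 27.8 in replicates 1 to 4. It was detected in 14.1%, 10.5%, 13.8% and 10.7% of cells, 1913 cells in all, of which 1266 held a single UMI. At the other end, 323 cells held 3 or more UMIs, and the highest count in a cell was 27. Detection followed depth. The cells in which it was found had median UMI counts of 20503, 14376, 17579.5 and 9542, against 5576, 4537.5, 4493 and 2041 in the cells in which it was not.

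For this reason each cell was thinned at random to 1000 UMIs before any marker was called, which left out 252, 209, 190 and 1266 shallower cells of replicates 1 to 4 and kept 14172. At that depth 389 cells held at least 1 *Nvelav* UMI, 2.89%, 2.30%, 2.69% and 2.88% of the cells of each library. Their full UMI counts no longer stood apart from those of the rest in 1 direction. The medians were 7542, 5068, 7569 and 2666.5 in *Nvelav*-positive cells, against 7276, 5413, 5997 and 3091 in *Nvelav*-negative cells. The 10 listed mitochondrial genes took 1.49%, 0.811%, 0.683% and 0.937% of the UMIs of *Nvelav*-positive cells, against 1.05%, 0.892%, 0.685% and 0.845% in *Nvelav*-negative cells, and the groups overlapped.

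*Nvelav* detection was highest in cells that carried either of the other neuronal markers. Cells were called positive for a class if the thinned cell held at least 1 UMI of *NvLWamide*, which encodes a precursor of LWamide neuropeptides, of *NvashA*, an achaete-scute transcription factor, of *Nvncol1*, a minicollagen of stinging-cell capsules, of *Nvwnt2*, a Wnt ligand of the trunk ectoderm, of *NvsnailA*, a zinc finger factor of the mesoendoderm, or of *Nvmucin*, a gland gene. The progenitor class took any of *Nvath-like*, *Nvmyc1* and *Nvnanos*. Among *NvashA*-positive cells 33.3%, 29.3%, 29.8% and 22.3% held *Nvelav* in replicates 1 to 4, against 2.21%, 1.70%, 1.93% and 2.14% of *NvashA*-negative cells. Among *NvLWamide*-positive cells the shares were 27.2%, 31.0%, 28.6% and 21.6%, against 2.14%, 1.38%, 1.89% and 1.74% of *NvLWamide*-negative cells. In both comparisons the lowest positive library, replicate 4, lay far above the highest negative library.

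The mean shares were 28.7% ± 4.63 in *NvashA*-positive cells and 2.00% ± 0.227 in *NvashA*-negative cells (SD, n = 4 libraries each). They were 27.1% ± 3.95 in *NvLWamide*-positive cells and 1.79% ± 0.317 in *NvLWamide*-negative cells. Each difference gave p = 0.0286 in a two-sided exact permutation test over libraries, the smallest p that 4 against 4 allows. After Benjamini-Hochberg adjustment over the 7 classes this was 0.0333. Positive and negative cells came from the same libraries. With libraries as pairs the exact permutation p of each difference was 0.125 (adjusted 0.146). That is the smallest paired p, so no share comparison in this report can pass as pairs. The classes overlapped, since 201 cells held both markers, 34.0% of the *NvLWamide*-positive and 49.0% of the *NvashA*-positive cells. *NvLWamide*-positive cells numbered 592 and *NvashA*-positive cells 410. The stinging-cell gene *Nvncol1* moved with *NvashA*. It rose by 4.38 on the log2 scale in *NvashA*-positive cells (SE 0.76, adjusted p = 0.00144 in edgeR's quasi-likelihood test), and by 2.74 without replicate 2 (adjusted p = 0.00018). That call was lost at 500 UMIs per cell (1.98, adjusted p = 0.101 in edgeR's test). With cells of more than 1 class left out of the positive cells alone the value was 0.23. That filter takes out every *NvashA*-positive cell with an *Nvncol1* UMI after thinning, so it cannot test the rise. Of the *NvashA*-positive cells 15 held an *Nvncol1* UMI, against 1 of the *NvLWamide*-positive cells, and the part of such cells in the *NvashA* values was not tested. Full counts gave the same picture at greater depth, with *Nvelav* found in 50.5% of *NvLWamide*-positive and 51.0% of *NvashA*-positive cells when all their UMIs were read. In these cells 24.7% and 27.3% held 3 or more *Nvelav* UMIs, against 1.17% of cells with none of the 7 class markers.

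Summed UMIs gave large ratios as well. The level of *Nvelav* was 352, 334, 292 and 239 CPM in *NvLWamide*-positive cells of replicates 1 to 4, against 19.7, 15.7, 20.6 and 18.2 CPM in *NvLWamide*-negative cells. In *NvashA*-positive cells it was 384, 311, 406 and 249 CPM, against 20.4, 20.0, 22.3 and 20.1 CPM in *NvashA*-negative cells. Replicate 4, the shallowest library per cell, had the lowest positive level in both.

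In edgeR's quasi-likelihood test on sums per library, with Benjamini-Hochberg adjustment over all genes tested, *Nvelav* rose by 4.22 on the log2 scale in *NvLWamide*-positive cells (SE 0.15, adjusted p = 1.73e-08). It rose by 4.23 in *NvashA*-positive cells (SE 0.18, adjusted p = 3.91e-08). Of all genes, 15.4% were called higher and 9.96% lower in *NvLWamide*-positive cells, and 15.6% higher and 12.4% lower in *NvashA*-positive cells. Without TMM factors these shares were 12.5% and 24.1%, and 13.2% and 25.9%. The median log2 fold change of all genes tested was -0.11 and -0.17 in these fits and -0.31 and -0.37 without TMM factors, which is far smaller than the change of *Nvelav*.

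**Figure D1:**
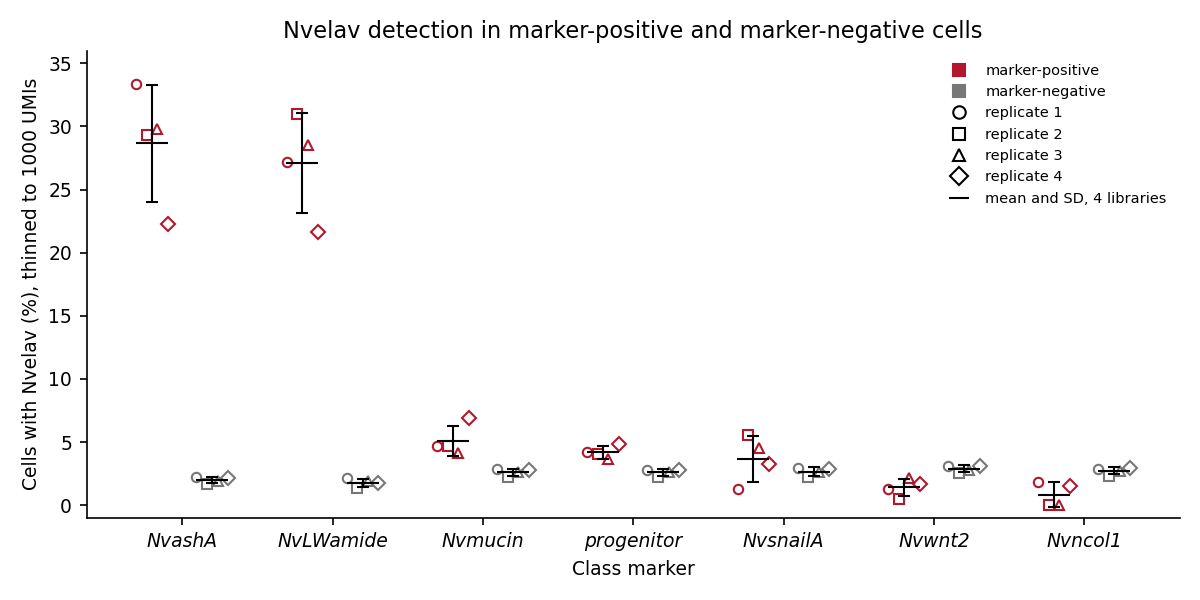
Share of cells with at least 1 *Nvelav* UMI after each cell was thinned to 1000 UMIs (vertical axis, %), in marker-positive (red) and marker-negative (grey) cells of 7 classes. Symbols are the 4 libraries, and bars give their mean and SD. The *NvashA*-positive and *NvLWamide*-positive libraries sit between 21.6% and 33.3%, and all other groups at 6.88% or below.

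The other classes differed far less from the rest of the cells. *Nvmucin*-positive cells, with the secreted glycoprotein gene of gland cells, held *Nvelav* in 4.67%, 4.71%, 4.17% and 6.88% of cells in replicates 1 to 4, against 2.83%, 2.22%, 2.64% and 2.75% of *Nvmucin*-negative cells. The means were 5.11% ± 1.21 and 2.61% ± 0.272 (SD, n = 4 each). The groups did not overlap (exact permutation p = 0.0286, adjusted 0.0333). Their level was 40.2, 34.7, 55.4 and 46.4 CPM, against 26.3, 24.6, 31.4 and 27.4 CPM in *Nvmucin*-negative cells. In edgeR's test *Nvelav* rose by 0.87 on the log2 scale (SE 0.18, adjusted p = 0.0022), with 16.6% of all genes called higher and 20.9% lower. The cells behind this share were few, 25 of 453, and 2 of the 453 held 3 or more *Nvelav* UMIs at full counts, 0.442%, against 1.17% of cells with none of the class markers. Those full counts were not at like depth, with median UMI counts of 2140 and 4906. The pooled levels of the same groups were 45.1 and 16.2 CPM. The call on shares was lost at 500 UMIs per cell (difference 0.273 percentage points, exact permutation p = 0.286), at 1000 genes per barcode (2.05, exact permutation p = 0.114) and in a second random draw (0.824, exact permutation p = 0.429).

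Progenitor-positive cells held *Nvelav* in 4.23%, 4.03%, 3.67% and 4.86% of cells, against 2.80%, 2.20%, 2.64% and 2.77% of progenitor-negative cells. The means of 4.20% ± 0.501 and 2.60% ± 0.278 (SD, n = 4 each) stood apart, every positive library above every negative one (exact permutation p = 0.0286, adjusted 0.0333). The direction turned, to -0.243 percentage points (exact permutation p = 0.686), with progenitor-positive cells of another class left out and all negative cells kept. The negative cells then still included those with neuronal markers, so this setting is not like for like. Progenitor-positive cells without a neuronal marker held *Nvelav* in 3.50%, 2.16%, 2.94% and 2.47% of cells. All cells with neither neuronal marker held it in 1.83%, 1.28%, 1.66% and 1.51%, and this difference was not tested. The level in all progenitor-positive cells was 49.8, 35.6, 39.7 and 40.8 CPM, against 25.1, 24.1, 31.5 and 26.8 CPM in progenitor-negative cells. *Nvelav* rose by 0.72 on the log2 scale in edgeR's test (SE 0.13, adjusted p = 0.00492), with 7.7% of all genes called higher and 8.5% lower. That call was lost when cells of more than 1 class were left out of the positive cells alone (log2 fold change 0.03, adjusted p = 0.947 in edgeR's test). By the same test it was also lost when 2 of the 3 genes were required (0.47, adjusted p = 0.394) and in a second random draw (0.48, adjusted p = 0.072).

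Among the 3 progenitor genes, *Nvelav* was most often detected in *Nvnanos*-positive cells, with few cells behind each share. Cells positive for *Nvnanos*, known as a translational repressor from *Drosophila*, held it in 11.4%, 6.06%, 6.45% and 10.1% of cells in replicates 1 to 4, 16 of 177 cells in all. Cells positive for *Nvath-like*, a proneural transcription factor of the atonal family, held it in 13 of 399 cells. Cells positive for *Nvmyc1*, a Myc factor, held it in 12 of 327 cells. The exact 95% intervals of the pooled shares overlapped, at 5.26% to 14.3%, 1.75% to 5.51% and 1.91% to 6.32% for *Nvnanos*, *Nvath-like* and *Nvmyc1*. The levels were 92.4 ± 24.7, 41.6 ± 14.6 and 23.1 ± 4.06 CPM in the same order (SD, n = 4 libraries), and the differences between these genes were not tested. *Nvnanos* itself rose by 1.85 on the log2 scale in *NvLWamide*-positive cells and by 2.67 in *NvashA*-positive cells. The part of cells with neuronal markers in its values was not tested.

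*Nvwnt2*-positive cells were below the *Nvwnt2*-negative cells. They held *Nvelav* in 1.32%, 0.531%, 2.14% and 1.65% of cells, against 3.13%, 2.59%, 2.78% and 3.09% of *Nvwnt2*-negative cells, with means of 1.41% ± 0.677 and 2.90% ± 0.258 (SD, n = 4 each). The groups did not overlap (exact permutation p = 0.0286, adjusted 0.0333). Their level was 16.1, 12.0, 25.4 and 13.6 CPM, against 28.0, 26.3, 32.8 and 29.7 CPM in *Nvwnt2*-negative cells. In edgeR's test *Nvelav* fell by 0.72 on the log2 scale (SE 0.19, adjusted p = 0.0123), with 21.6% of all genes called higher and 21% lower. Without replicate 4 that call was lost, at -0.64 (adjusted p = 0.0659 in edgeR's test).

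*Nvncol1*-positive cells are the class of stinging cells by the study's list. Only 3 of these 246 cells held *Nvelav* after thinning, 1.85%, 0%, 0% and 1.54% of cells in replicates 1 to 4, against 2.90%, 2.33%, 2.73% and 2.91% of *Nvncol1*-negative cells. The 0 of 35 and 0 of 27 cells of replicates 2 and 3 allow shares of up to 8.57% and 11.1%. The means of 0.848% ± 0.987 and 2.72% ± 0.274 (SD, n = 4 each) differed (exact permutation p = 0.0286, adjusted 0.0333). The *Nvncol1*-negative cells, too, included most cells with neuronal markers. Summed UMIs did not show the difference of shares. The level was 23.3, 25.9, 10.7 and 21 CPM, against 26.5, 24.7, 32.2 and 27.8 CPM in *Nvncol1*-negative cells, and the log2 fold change in edgeR's test was 0.24 (SE 0.21, adjusted p = 0.46), with 14.5% of all genes called higher and 6.84% lower. Of the 59 *Nvelav* UMIs in *Nvncol1*-positive cells, 72.9% lay in 5 cells. Without TMM factors, a setting that moved the median of all genes to -0.82, against -0.20 with them, the log2 fold change was -0.39 (adjusted p = 0.125). It was -1.13 (adjusted p = 0.0488) without the 5% of barcodes with most UMIs and -2.44 (adjusted p = 0.0203) when 2 UMIs of *Nvncol1* were required, so the direction of this value was not settled.

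*NvsnailA*-positive cells could not be told from the rest. They held *Nvelav* in 1.28%, 5.56%, 4.55% and 3.24% of cells, against 2.93%, 2.21%, 2.65% and 2.87% of *NvsnailA*-negative cells, so replicate 1 lay below and the other 3 above. The difference of means, 0.992 percentage points, was smaller than its SD of 2.14 over libraries (exact permutation p = 0.314, adjusted 0.314). The log2 fold change in edgeR's test was -0.04 (SE 0.22, adjusted p = 0.919), with 21.1% of all genes called higher and 25.7% lower. Read at full depth these cells would have looked different, with *Nvelav* in 31.2% ± 10.4 of *NvsnailA*-positive cells and 13.0% ± 2.05 of *NvsnailA*-negative cells (SD, n = 4 each). *NvsnailA*-positive cells of replicates 1 to 3 had median UMI counts of 21481, 15625.5 and 16287, against 7181.5, 5331.5 and 5992.5 in *NvsnailA*-negative cells.

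The 9890 cells with none of the 7 class markers give a level for comparison, not a measure of free RNA. They held *Nvelav* in 1.68%, 1.15%, 1.47% and 1.36% of cells, at 16.6, 14.7, 17.4 and 16.1 CPM, and their median UMI count was 4906, against 3242 in *NvLWamide*-positive, 3242 in *NvashA*-positive, 2140 in *Nvmucin*-positive and 5007 in progenitor-positive cells. The mean shares in *Nvwnt2*-positive and *Nvncol1*-positive cells, whose median UMI counts were 5370.5 and 3423, were at or below that of these cells. Mean levels in the same order were 16.8 ± 5.99 and 20.2 ± 6.68 CPM, above the 16.2 ± 1.12 CPM of these cells (SD, n = 4 libraries). The shares and levels of both classes are not read as expression. The barcodes with fewer than 500 genes, which were left out, stood at 23.5, 55.4, 67.0 and 63.4 CPM in replicates 1 to 4. In replicates 2 to 4 that was above the levels of the *Nvmucin*-positive and progenitor-positive cells of the same library. The part of free RNA in these classes was not tested, and their shares are not read as expression either.

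Because thinning is random, 50 further draws were averaged, an alternative chosen after the first values were seen. The mean shares became 27.8% ± 4.55 for *NvLWamide*, 26.8% ± 3.01 for *NvashA*, 4.08% ± 0.86 for progenitor, 4.01% ± 0.735 for *Nvmucin*, 2.38% ± 0.617 for *NvsnailA*, 1.41% ± 0.839 for *Nvwnt2* and 0.903% ± 0.301 for *Nvncol1* (SD, n = 4). The order within the pairs *NvashA* and *NvLWamide*, and *Nvmucin* and progenitor, changed places. The *Nvwnt2* difference no longer passed (exact permutation p = 0.0571, adjusted 0.0667), since replicate 4 reached 2.62%. In a second single draw none of the 7 classes passed after adjustment, with exact permutation p = 0.0286 and adjusted p = 0.0667 at best, and the differences for progenitor and *Nvmucin*, 1.57 and 0.824 percentage points, were smaller than their SDs over libraries of 2.14 and 1.58.

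With cells of both classes left out of a pair, 14 of the 21 pairs of classes differed at an adjusted p of 0.0429 in the exact permutation test over libraries. Neighbours in the order of shares that did not pass were *NvashA* and *NvLWamide* (p = 0.657), *Nvmucin* and progenitor (p = 0.0571, adjusted 0.08), progenitor and *NvsnailA* (p = 0.743), *NvsnailA* and *Nvwnt2* (p = 0.114), and *Nvwnt2* and *Nvncol1* (p = 0.429), all by the same exact test. The levels thus fell into a high pair, the neuronal markers, and 5 low classes in which neighbours could not be ordered. Each of the 10 pairs of a neuronal with another class passed.

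Cells with both neuronal markers carried the most *Nvelav*. It was detected in 41.2%, 45.2%, 41.4% and 31.8% of the cells with both *NvLWamide* and *NvashA* in replicates 1 to 4. The shares were 20.3%, 22.6%, 17.6% and 17.0% with *NvLWamide* alone, and 26.8%, 11.1%, 17.9% and 13.3% with *NvashA* alone. With neither marker they were 1.83%, 1.28%, 1.66% and 1.51%. Every library of the cells with both markers lay above every library of the single-marker cells.

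The mean shares were 39.9% ± 5.70 over 201 cells with both, 19.4% ± 2.58 over 391 with *NvLWamide* alone, 17.3% ± 6.97 over 209 with *NvashA* alone and 1.57% ± 0.235 over 13371 with neither (SD, n = 4). Of the 6 pairs of these groups 5 passed (exact permutation p = 0.0286, adjusted 0.0343). The single-marker groups could not be told apart (difference 2.13 percentage points, SD 7.56, exact permutation p = 0.657). In CPM the order was the same, at 527 ± 123, 198 ± 40.5, 172 ± 69.5 and 16.7 ± 1.63. Median UMI counts in replicates 1 to 4 were 5847, 3722, 7080 and 2131 in cells with both markers, 5394, 4435, 6999 and 2677 with *NvLWamide* alone, and 5397, 4011, 3753.5 and 2799 with *NvashA* alone. The cells with both were thus the deepest in replicates 1 and 3 and the shallowest in replicates 2 and 4.

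**Figure D2:**
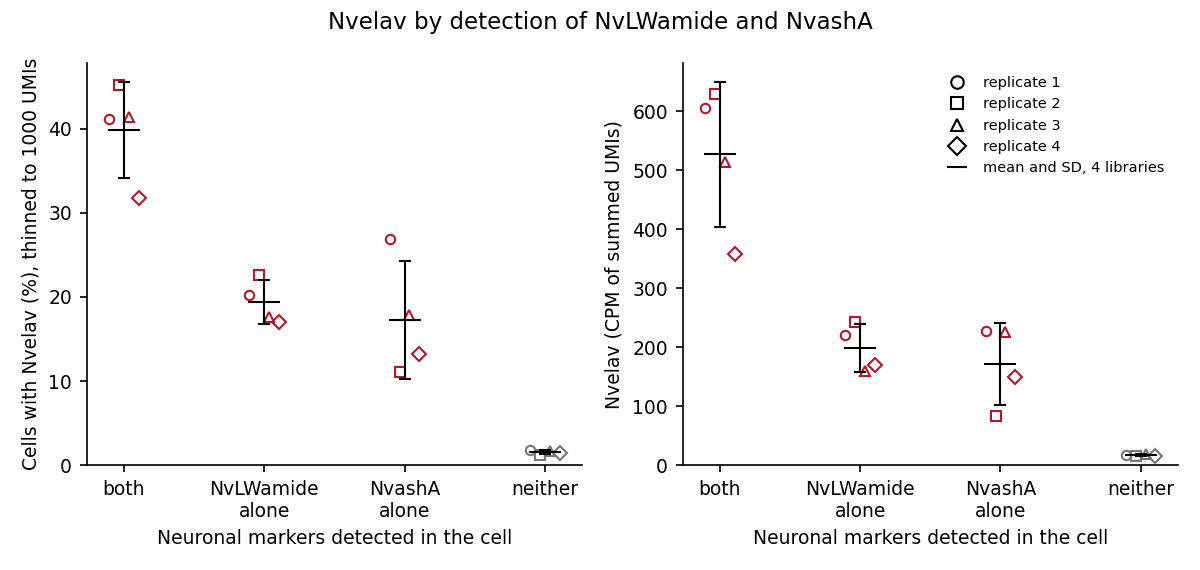
*Nvelav* by which neuronal markers the thinned cell held, as the share of cells with *Nvelav* (left axis panel, %) and as CPM of summed UMIs (right panel). Symbols are libraries, and bars give mean and SD. Cells with both markers sit highest, at 31.8% to 45.2%, and cells with neither lowest, at 1.28% to 1.83%.

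*Nvelav* detection also stood higher where more *NvLWamide* UMIs were read. It was found in 1.79% ± 0.317 of cells with no *NvLWamide* UMI, 11.9% ± 3.84 with 1, 30.4% ± 13.2 with 2, 40.1% ± 11.8 with 3 to 5 and 43.6% ± 5.42 with 6 or more (SD, n = 4 libraries). The counts of cells behind these shares were 13580, 262, 106, 122 and 102. In replicate 3 the share was 15.4% with 2 UMIs, against 17.4% with 1, so the libraries of these bins overlapped, as did those of the 3 bins from 2 UMIs upward. The libraries with 3 to 5 UMIs, at 27.0% to 53.8%, lay above those with 1, at 8.82% to 17.4%. For *NvashA* the shares were 2.00% ± 0.227 with no UMI, 23.4% ± 8.09 with 1, 39.6% ± 17.0 with 2 and 36.5% ± 10.8 with 3 to 5, over 13762, 265, 87 and 52 cells. Only 6 cells held 6 or more, and 2 of them held *Nvelav*. These shares are given as a description, with no test.

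**Figure D3:**
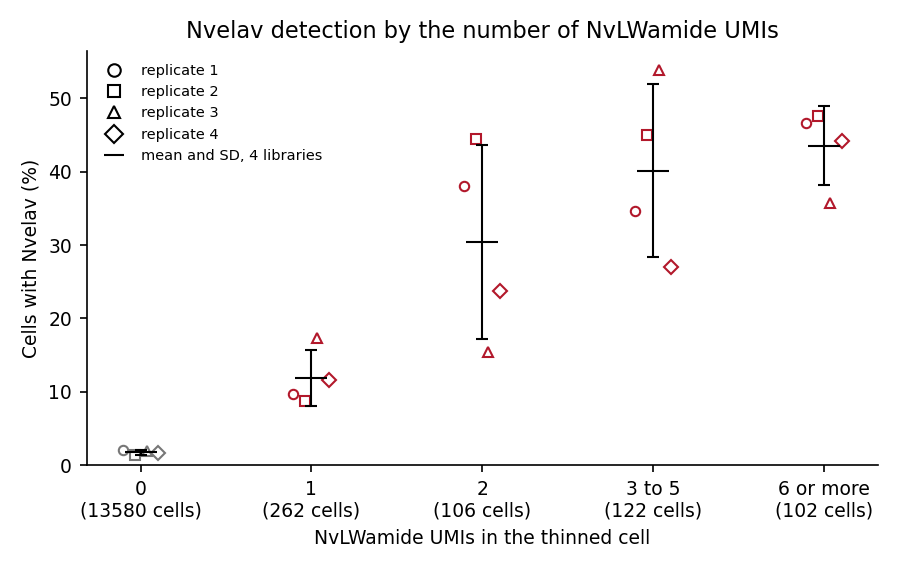
Share of cells with *Nvelav* (vertical axis, %) by the number of *NvLWamide* UMIs in the cell after thinning to 1000 UMIs (horizontal axis, with the number of cells). Symbols are libraries, and bars give mean and SD. The mean was 1.79% without *NvLWamide* and 43.6% at 6 or more UMIs.

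Some of the *Nvelav* in the other classes lay in cells that also held a neuronal marker. Progenitor-positive cells that held *NvLWamide* or *NvashA* carried *Nvelav* in 15.4%, 30.0%, 14.3% and 19.6% of cells, against 3.50%, 2.16%, 2.94% and 2.47% of progenitor-positive cells without a neuronal marker. The means were 19.8% ± 7.16 over 76 cells and 2.77% ± 0.584 over 724 cells (SD, n = 4 libraries each). The difference was in the same direction in 4 of 4 libraries with no overlap (exact permutation p = 0.0286), and after adjustment over the 4 classes that could be tested it did not pass (0.114). The progenitor-positive cells with a neuronal marker stood at 321, 211, 242 and 197 CPM, and those without one at 34.0, 20.6, 25.0 and 21.8 CPM.

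The same split of *Nvwnt2*-positive cells gave 12.7% ± 9.51 over 69 cells with a neuronal marker and 1.11% ± 0.651 over 1893 cells without (SD, n = 4, exact permutation p = 0.143, adjusted 0.286). *NvsnailA*-positive cells held *Nvelav* in 4 of 17 cells with a neuronal marker, a share of 23.5% (exact 95% interval 6.81% to 49.9%), and in 10 of 393 without, 2.54% (1.23% to 4.63%). They were not tested, since replicate 3 had no such cell with a neuronal marker. *Nvncol1*-positive cells held it in 0 of 16 cells with a neuronal marker, which allows a share of up to 18.8%, and in 3 of 230 without. Pooled full counts ran the other way, with 28 *Nvelav* UMIs in those 16 cells and 31 in the 230, at 60.6 and 13.4 CPM. The 28 were 0, 10, 1 and 17 UMIs in replicates 1 to 4. They lay in 0%, 50%, 20% and 14.3% of 2, 2, 5 and 7 cells, too few to settle the direction. The median UMI counts of *Nvncol1*-positive cells were 11983.5 with and 3258.5 without a neuronal marker. In *Nvmucin*-positive cells *Nvelav* was in 3.75% ± 7.50 of 36 cells with a neuronal marker and in 5.08% ± 0.624 of 417 cells without (SD, n = 4, exact permutation p = 0.743). Their levels ran the other way, at 82.9 ± 57.5 CPM with and 41.5 ± 9.19 CPM without (SD, n = 4). At 2000 UMIs per cell the share with a neuronal marker was the higher by 18.1 percentage points (exact permutation p = 0.0286, adjusted 0.0476). *Nvmucin*-positive cells without a neuronal marker held *Nvelav* in 5.05%, 4.94%, 4.41% and 5.92% of cells, at 42.3, 30.0, 52.5 and 41.3 CPM.

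Taking *Nvelav* as the starting point, 44.7% ± 5.63 of *Nvelav*-positive cells also held *NvLWamide* or *NvashA*, against 3.99% ± 1.56 of *Nvelav*-negative cells (SD, n = 4 libraries). *NvLWamide* was in 28.3%, 41.9%, 32.1% and 43.0% of *Nvelav*-positive cells and *NvashA* in 25.3%, 27.4%, 30.4% and 28.5%. Both were in 74 of the 389 *Nvelav*-positive cells. A further 140 of the 389 held none of the 7 class markers, 37.0% ± 4.17, against 71.4% ± 1.79 of *Nvelav*-negative cells. At 1000 UMIs per cell a missing marker does not show that the gene was silent.

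The full UMI sums of *Nvelav*-positive and *Nvelav*-negative cells were compared for the other 11 genes of the study's list. Of these 4 rose, 1 fell and 6 did not pass in edgeR's quasi-likelihood test, while 7.86% of all 16358 genes tested were called higher and 4.65% lower. Among the neuronal genes *NvLWamide* rose by 4.15 on the log2 scale (SE 0.26, adjusted p = 3.29e-06) and *NvashA* by 4.00 (SE 0.20, adjusted p = 1.07e-06). Among the progenitor genes *Nvnanos* rose by 1.59 (SE 0.16, adjusted p = 6.73e-05), and *Nvath-like* at 0.69 (SE 0.44, adjusted p = 0.351) and *Nvmyc1* at 0.34 (SE 0.28, adjusted p = 0.48) did not pass.

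The gland gene *Nvmucin* rose by 0.99 (SE 0.25, adjusted p = 0.0231 in edgeR's test). That call was lost without replicate 1, 2 or 3 (adjusted p = 0.0754, 0.0706 and 0.0592) with at least 1000 genes per barcode (adjusted p = 0.068) and in a second random draw, at 0.32 (adjusted p = 0.409). With cells called on their full counts the direction turned, to -0.93 (adjusted p = 0.000431 in edgeR's test). Such calls followed depth, with median UMI counts of 14653 in cells with *Nvelav* and 3149 in cells without. *Nvmucin*-positive cells had a median of 2140, and the part of depth in this turn was not tested. The minicollagen *Nvncol1* fell by 2.00 (SE 0.32, adjusted p = 0.00167), and the other minicollagen, *Nvncol3*, at -1.44 (SE 0.49, adjusted p = 0.0861) did not pass. *Nvwnt2* stood at -0.67 (adjusted p = 0.0689), *NvsnailA* at 0.10 (adjusted p = 0.823), and NV2g011441000.1, an ID that the study's list gives under a pair of names, at -0.58 (adjusted p = 0.106). With the library as a block the test called 8 of the 11, since *Nvncol3* (-1.76, adjusted p = 0.00613), *Nvwnt2* (-0.73, adjusted p = 0.0204) and NV2g011441000.1 (-0.61, adjusted p = 0.0268) also fell.

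Cells were then grouped by their transcriptomes, with the genes of the study's list left out of the clustering, so that *Nvelav* did not take part in it. Its level in the 22 clusters is a description, without a test. Cluster 11, with 630 cells, stood apart from all others at 425 CPM, and at 428, 412, 373 and 457 CPM in replicates 1 to 4. Over the cells outside it the level was 16.7 CPM, a ratio of 25.4. *NvLWamide* was 94.0-fold and *NvashA* 57.5-fold higher in cluster 11 than outside, and *NvLWamide* was among its 10 leading genes, so the cluster is called neuron-like. It held 2.63% of all UMIs and 40.7% of the *Nvelav* UMIs. Its cells were shallow, with a median UMI count of 2421.5. Of the thinned *Nvelav*-positive cells 40.4%, 45.2%, 37.5% and 57.0% fell into it in replicates 1 to 4, 187 of 389 in all, against 1.83%, 1.75%, 1.93% and 3.93% of *Nvelav*-negative cells.

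The next clusters were small or nearly all from 1 library. Cluster 21 reached 87.7 CPM with 41 cells, 39 of them from replicate 4, and cluster 14 reached 56.7 CPM with 166 cells, 146 of them from replicate 4. In cluster 21 *NvLWamide* was 7.51-fold and *NvashA* 5.94-fold higher than in the other cells, with *Nvnanos* and *NvLWamide* among its leading genes. In cluster 14 *NvLWamide* was 2.32-fold and *NvashA* 4.91-fold higher. The neuronal markers were thus raised in both clusters as well. Both clusters are left unnamed, and library and cluster cannot be told apart in them. Cluster 8, in which *Nvmucin* was a leading gene, stood at 31.0 CPM, and cluster 10, with *Nvnanos* and *Nvath-like* among its leading genes, at 23.9 CPM. Cluster 12, in which *Nvncol1* was 92.6-fold and *NvashA* 2.97-fold higher than in the other cells, stood at 13.7 CPM. Cluster 1, with *Nvwnt2* among its leading genes, was near the bottom at 6.86 CPM, and the median over clusters was 16.0 CPM.

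**Figure D4:**
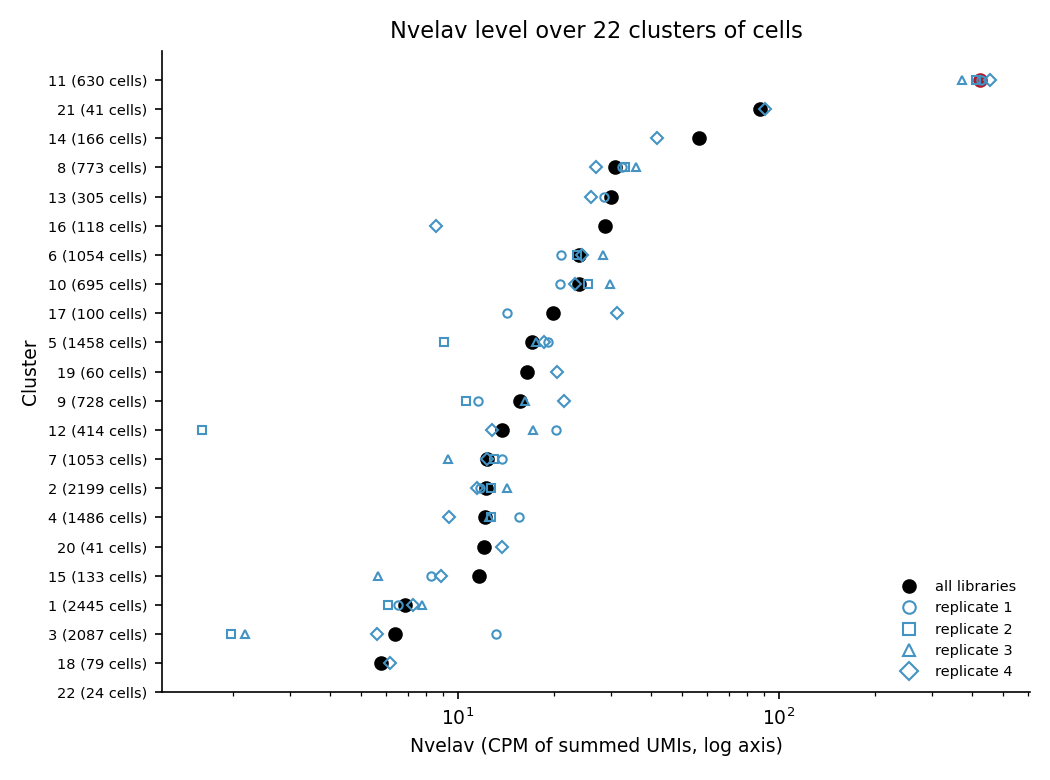
*Nvelav* level (horizontal log axis, CPM of summed UMIs) in 22 clusters, ordered by level, with the number of cells. Filled points pool the 4 libraries (red for cluster 11), and open symbols are libraries with at least 20 cells in the cluster and at least 1 *Nvelav* UMI. Cluster 22, with 24 cells, had no *Nvelav* UMI and has no point. Cluster 11 stands at 425 CPM and the next at 87.7 CPM.

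*Nvelav* was less concentrated in the neuron-like cluster than the other neuronal markers. Of its UMIs 40.2%, 37.5%, 41.9% and 41.9% lay in cluster 11 in replicates 1 to 4. For *NvLWamide* the shares were 70.7%, 75.6%, 72.2% and 71.1%, and for *NvashA* 62.4%, 64.6%, 58.5% and 59.4%. No library of *Nvelav* overlapped with any of the other markers. The progenitor gene *Nvnanos* had 12.6% ± 3.03 of its UMIs there (SD, n = 4).

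**Figure D5:**
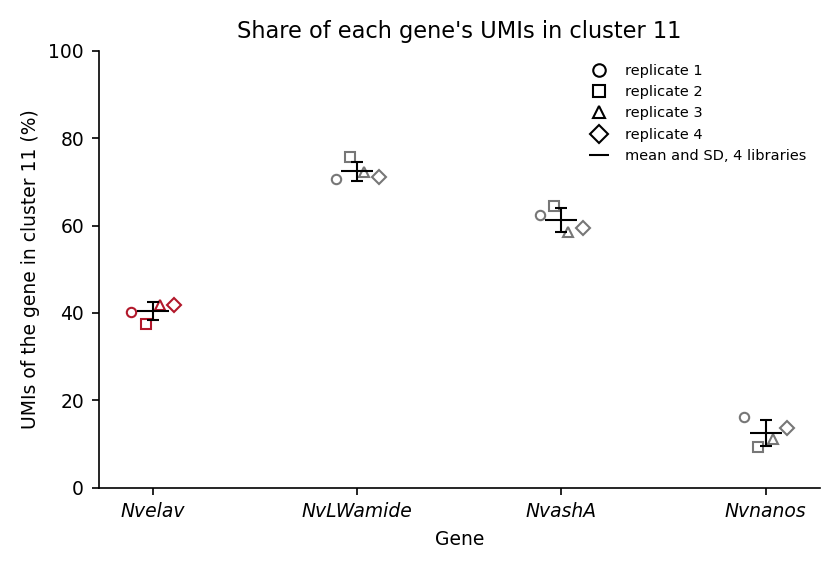
Share of each gene's UMIs that lay in the neuron-like cluster 11 (vertical axis, %). Symbols are the 4 libraries, and bars give mean and SD. *Nvelav* sits at 37.5% to 41.9%, below *NvashA* and *NvLWamide* and above *Nvnanos*.

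The remainder of *Nvelav* was spread over the other clusters. Cluster 6, whose cells had a median of 23947.5 UMIs, held 17.9% of the *Nvelav* UMIs and 20.5% of all UMIs, at 23.9 CPM. The mesoendoderm gene *NvsnailA* was 9.43-fold higher in cluster 6 than in the other cells, at 199 CPM. Per *NvLWamide* UMI there were 0.181, 0.165, 0.180 and 0.161 *Nvelav* UMIs in cluster 11 in replicates 1 to 4, against 0.649, 0.852, 0.649 and 0.548 over all other clusters. Per *NvashA* UMI the pooled ratio was 0.577 in cluster 11, against 1.30 over all other clusters. The ratios in cluster 11 were thus below those outside it in every library. That order follows from the shares of UMIs in cluster 11 given above and is not a further result. The part of free RNA or of doublets in the counts outside cluster 11 was not tested.

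Within cluster 11, cells in which *NvLWamide* or *NvashA* was detected held *Nvelav* in 45.1%, 38.5%, 39.6% and 31.6% of cells. The 348 cells outside cluster 11 in which a neuronal marker was detected held it in 3.23%, 8.70%, 5.26% and 4.46% of cells, with a pooled median UMI count of 3980, against 2810 in those of cluster 11. Cells of cluster 11 with neither marker held *Nvelav* in 24 of 108 cells, and cells outside it with neither in 185 of 13263. In cells in which *NvLWamide* or *NvashA* was detected, detection of *Nvelav* therefore differed by cluster. That is a description, since the clusters were made from these cells. The groups mix cells with 1 marker and cells with both, and the part of that mix in the difference was not tested.

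The genes most like *Nvelav* over the 22 clusters, by the Pearson correlation of log2(CPM + 10) among 15120 genes with at least 200 UMIs, were NV2g006493000.1 (r = 0.935) and NV2g020288000.1 (r = 0.929). Over 28 sums, of 7 marker classes in 4 libraries, they were NV2g010050000.1 (r = 0.977) and NV2g015023000.1 (r = 0.976). The points share libraries, depth and cells, and the files pair these IDs with no names. All 4 had 68.9% to 72.0% of their UMIs in cluster 11. *NvashA* ranked 51 (r = 0.855) and *NvLWamide* 88 (r = 0.805) over the clusters. Genes with r above 0.9 numbered 13 over the clusters and 175 over the sums.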

How the data were processed

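The deposited files hold unnormalized UMI counts as a matrix of genes by barcodes for each of 4 technical replicates of 1 pool of gastrulae. The authors aligned reads to introns and exons with CellRanger. The paper's methods, the submitters' processing notes (version 7.1.1) and the matrix headers (6.1.2) name different versions, and for the genome build the sources used here give no name. The RefSeq table at hand matched 0 of the gene IDs, so no sequence is shown. The marker NvNgal was not analysed here.

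Barcodes with at least 500 genes were kept, and counts were thinned to 1000 UMIs per cell without replacement. Shares were compared over libraries with two-sided exact permutation tests. Full UMIs were summed per library and group and tested with edgeR 4.0.16 (glmQLFTest, TMM, filterByExpr, R 4.3.3), with Benjamini-Hochberg adjustment over all genes at 0.05. Standard errors are the absolute log2 fold change over the square root of F. Clusters were made with Seurat 5.3.0 (LogNormalize, 4000 variable genes without the study's list, 30 principal components, resolution 0.5). Scripts ran in Python with scipy and were tested on simulated data. Limits for a count of 0 use 3 counts, and these limits and the exact intervals (95%) cover counting error only.

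Genes named are *Nvelav*, the genes of the study's list with an ID, 10 mitochondrial genes as a sum, and the 2 most like *Nvelav* over clusters and over class sums. *Nvelav*, the lists and the tests were chosen with earlier results of these data known. The compared sums were paired by library, since positive and negative cells of a replicate were sequenced together. Their deviations from the group means correlated at 0.00259 to 0.526, over 0.1 in 22 of 32 cases. Alternatives were other thinned depths, filters, normalizations, DESeq2 1.42.0, a library block and leaving out each replicate.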

Additional observations from a re-analysis of the deposited data

Results flagged for a closer look

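Over 70 sets of 4 library values, 2 had a library far from the other 3, and chance gives such a gap in about 1 of 20 sets. The level of *Nvelav* in *NvashA*-negative cells was 22.3 CPM in replicate 3, while the other libraries lay between 20.0 and 20.4 CPM. Among *Nvmucin*-positive cells with a neuronal marker, replicate 4 held *Nvelav* in 15% of cells, 3 of 20, and the other libraries in none of 8, 4 and 4 cells, numbers too small to limit the share.

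The 2690 barcodes with fewer than 500 genes, which entered no comparison, held 93 *Nvelav* UMIs. These were 9, 15, 18 and 51 UMIs in replicates 1 to 4, at 23.5, 55.4, 67.0 and 63.4 CPM, against 26.4, 24.6, 31.7 and 27.8 CPM in the kept cells. In 3 of the 4 libraries the level was thus higher in the barcodes left out.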

How the results depend on the processing

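In edgeR's test the rise of *Nvelav* in *NvLWamide*-positive, *NvashA*-positive and *Nvmucin*-positive cells kept its call under every alternative run, and so did the rise of *NvLWamide*, *NvashA* and *Nvnanos* in *Nvelav*-positive cells. Shares depended more on the settings, partly by construction. The smallest exact p passes adjustment only where at least 5 of 7 classes, or 13 of 21 class pairs, reach it. Differences of shares below are in percentage points, positive minus negative, in the order *NvLWamide*, *NvashA*, *Nvncol1*, progenitor, *Nvwnt2* and *Nvmucin*, and for those given the cause of a lost call was otherwise not tested.

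At 500 UMIs per cell they were 18.9, 18.6, -1.31, 1.34, -0.847 and 0.273, with *NvsnailA* at -0.306. At 2000 UMIs they were 35.4, 38.9, -1.37, 2.63, -2.44 and 4.45. A second draw gave 29.0, 27.5, -1.94, 1.57, -1.69 and 0.824, with *NvsnailA* at -0.956. With at least 1000 genes per barcode they were 25.6, 31.2, -1.29, 1.39, -1.41 and 2.05. In these 4 settings no class had an exact permutation p under 0.05 after adjustment, the lowest being 0.05, or 0.0667 in the second draw. Of the class pairs 0 passed at 500 UMIs, in the second draw and at 1000 genes. Unthinned counts gave 8.26 for *Nvncol1*, 2.68 for *Nvwnt2* and 26.4 for *NvsnailA*. Over 50 draws, chosen after seeing the data, *Nvwnt2* stood at -1.34 and *NvsnailA* at -0.193. The progenitor difference was 1.13 with 2 of 3 genes. It was -0.243 among cells of 1 class, a filter that was put on the positive cells alone, here and below.

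The cells with both neuronal markers exceeded those with *NvLWamide* alone by 14.6 at 2 UMIs per marker, no longer past the threshold. *NvLWamide* alone minus *NvashA* alone was -4.75 at 1000 genes. With minus without a neuronal marker, the difference at 2000 UMIs was 32.1 in progenitor-positive, 15.4 in *Nvwnt2*-positive and 18.1 in *Nvmucin*-positive cells, each with an exact permutation p of 0.0286 and an adjusted p of 0.0476, and 10.8 in *Nvncol1*-positive cells. In the second draw it was 11.1 in *Nvmucin*-positive cells, and at 2 UMIs it was -1.09 in *Nvwnt2*-positive cells. Where a library held no such cell, no value was made.

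The log2 fold change of *Nvelav* in *Nvncol1*-positive cells was -0.50 at 500 UMIs, -0.58 in the second draw, -2.44 at 2 UMIs, -0.39 with library totals, -1.13 without the 5% of barcodes with most UMIs and -0.44 among cells of 1 class. In progenitor-positive cells it was 0.48 in the second draw, 0.032 among cells of 1 class and 0.47 with 2 of 3 genes, none past the threshold. In *Nvwnt2*-positive cells it was -0.60 at 2 UMIs, not past it. In *NvsnailA*-positive cells it was 0.0021 at 1000 genes and 0.059 without the 5% of barcodes.

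Between *Nvelav*-positive and *Nvelav*-negative cells, 8 of 11 markers passed with unthinned counts and at 2 UMIs, against 5. At 2 UMIs *Nvath-like* stood at -1.72, *Nvmyc1* at -0.29, *NvsnailA* at -4.29 and *Nvmucin* at -1.66. *Nvmucin* was -0.016 at 500 UMIs and -0.93 unthinned, a setting in which calls followed depth. *Nvmyc1* was -0.083 at 2000 UMIs, -0.20 in the second draw, -0.012 unthinned and -0.11 without the 5% of barcodes, where *Nvath-like* was -0.27. *NvsnailA* was -0.28 at 500 UMIs, -0.00044 at 2000, -0.27 in the second draw and -0.093 to 0.33 with 1 library left out, the lowest without replicate 3.

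With libraries as pairs the share differences keep their values, 25.3, 26.7, -1.87, 1.60, -1.49 and 2.50 for the classes, and 20.5, 22.6, 38.3, 17.8 and 15.7 for both minus *NvLWamide* alone, minus *NvashA* alone and minus neither, *NvLWamide* alone minus neither and *NvashA* alone minus neither, but the smallest paired p is 0.125 (exact permutation test), so none can pass. The replicate block in edgeR called 8 of 11 markers and changed no call of *Nvelav* in the 7 classes.

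Leaving out 1 library makes a share test void, since 3 against 3 gives no exact permutation p under 0.1. The class differences then ranged over 23.9 to 27.1, 25.2 to 28.9, -2.14 to -1.58, 1.43 to 1.78, -1.77 to -1.30 and 1.95 to 2.82, and those between neuronal groups over 19.4 to 22.4, 18.8 to 25.4, 36.4 to 41.0, 16.7 to 18.6 and 12.6 to 17.7, with *NvLWamide* alone minus *NvashA* alone at -1.001 to 5.02, below 0 without replicate 2. The log2 fold changes of *Nvelav* ranged over -0.89 to -0.64 in *Nvwnt2*-positive cells, lost without replicate 4, and -0.24 to 0.23 in *NvsnailA*-positive cells. Markers called in *Nvelav*-positive cells ranged over 4 to 6. Without TMM factors the medians of all genes shifted by over 0.1 for *NvLWamide*, *NvashA*, *Nvncol1*, *Nvwnt2* and *Nvmucin*, and calls moved towards lower. For *Nvncol1* 10.2% of genes were then higher and 47.7% lower, against 14.5% and 6.84%, for progenitor 5.67% and 10.2%, against 7.7% and 8.5%, and for *Nvwnt2* 15.9% and 26.4%, against 21.6% and 21%.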
